A study of Mus musculus with 9 samples.

Results

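Kidney cells in primary culture that received TNF together with the NF-kB inhibitor ACHP were compared with cells that received PBS, to ask which part of the TNF response remained under the inhibitor and what was added with it. The comparison used 6 of the 9 RNA-seq libraries of the study, 3 of TNF with ACHP and 3 of PBS, and all 14747 of 57010 genes that passed a filter on low counts. All groups came from wild-type mice, whose digested kidneys were cultured, replated and sampled 6 h after treatment. The treated group had 20 ng/mL TNF with 1 µM ACHP, and 3 further libraries with 20 ng/mL TNF alone are given beside it. No group received ACHP alone, so an effect of ACHP itself and an effect of ACHP in cells exposed to TNF cannot be told apart. The labels do not say whether replicates came from separate animals or cultures, so each p-value measures the spread between these libraries, which may be technical.

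TNF is an inflammatory cytokine whose receptors activate the IkB kinase complex. The kinase marks IkB proteins for destruction, and the freed NF-kB dimers enter the nucleus and switch on chemokines, adhesion molecules and their own inhibitors. TNF receptors also activate the MAP kinases JNK, p38 and ERK, which act on AP-1 and on mRNA stability. ACHP is a small molecule that inhibits the IkB kinase.

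Total counts were 14194295 to 18272326 in the PBS libraries and 15743620 to 20892176 in those with TNF and ACHP. Mitochondrially encoded transcripts took 3.61% to 4.37% of the counts over the 9 libraries. Of the marker lists, 13 of 33 proximal tubule genes and 15 of 26 collecting duct and distal tubule genes passed the filter, so many genes of the native segments were at or near 0 in these cultures. The PBS libraries were not alike. Summed over a list of 40 neuron markers, the level was 79.9 CPM (the count scaled to a common library size by TMM) in PBS replicate 1 but 261 in replicate 2 and 210 in replicate 3. It was 131 to 184 CPM with TNF and 72.8 to 75.4 CPM with TNF and ACHP. Snap25, a synaptic vesicle fusion protein, was at 0.0705 CPM in PBS replicate 1, 12.1 in replicate 2 and 8.05 in replicate 3, against 0.0476 to 0.122 with TNF and ACHP. Its log2 fold change was -6.39 (edgeR adjusted p = 9.8e-04) against all 3 PBS libraries and 0.09 against PBS replicate 1 alone.

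Neural genes, and other genes that were as unequal among the PBS libraries, were therefore set apart. They are called the neural set below. The set held 173 tested genes, namely the 140 whose mean in PBS replicates 2 and 3 was at least 4-fold that in PBS replicate 1, with 0.25 CPM added to each, together with 61 tested genes of the neuron, astrocyte, oligodendrocyte and choroid plexus lists. Of these 173, 134 (77.5%) were called lower with TNF and ACHP and 0 higher by edgeR at an adjusted p under 0.05, with a median log2 fold change of -3.70 over the whole set. The unequal PBS libraries were part of how this set was chosen, so these counts are a description. The set is not only neural, since it holds the red blood cell marker Hbb-bs. For 33 of the 134, PBS replicate 1 also lay above all 3 libraries with TNF and ACHP. Kl, of the choroid plexus list, was even among the PBS libraries (log2 ratio -0.07). It fell by 0.87, and by 0.91 against PBS replicate 1 alone. Against PBS replicate 1 alone, 0 of the 38 tested neuron markers were called by edgeR (3 at an unadjusted p under 0.05) and their median log2 fold change was -0.03. Red cell transcripts varied too, with summed levels of 0 to 3.51 CPM among the PBS libraries.

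**Figure D1:**
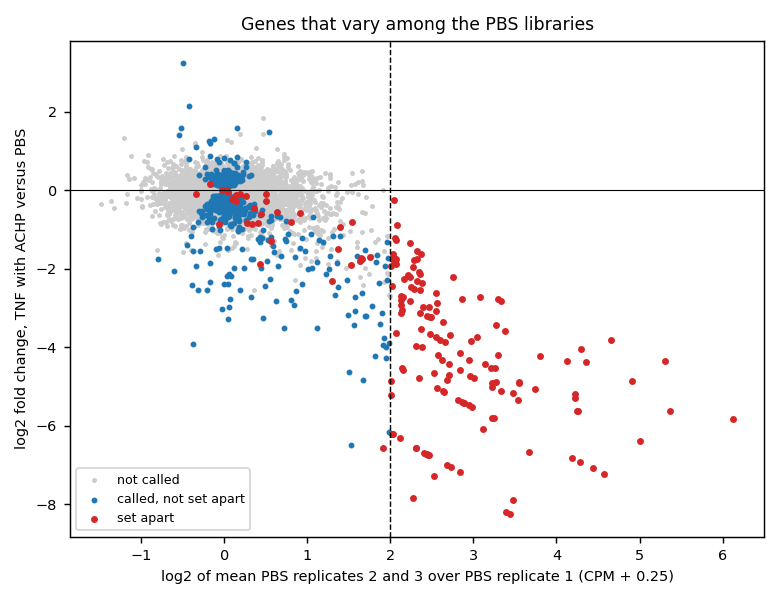
Each point is 1 of 14747 tested genes. The horizontal axis gives the log2 ratio of the mean of PBS replicates 2 and 3 to PBS replicate 1, each with 0.25 CPM added, and the vertical axis gives the log2 fold change of TNF with ACHP versus PBS. Red points are the 173 genes set apart, blue points are other genes called at an edgeR adjusted p under 0.05, and the dashed line marks the 4-fold limit. Most of the genes right of the line lie far below 0, and some called genes left of it also fall with the horizontal axis.

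Outside the neural set most of the called changes under the inhibitor were below 2-fold. By edgeR 321 genes (2.18% of those tested) were higher with TNF and ACHP than with PBS and 570 (3.87%) were lower. With the neural set left out of 14574 genes, 321 (2.2%) were higher and 436 (2.99%) lower. The median log2 fold change was 0.21 among the genes called higher and -0.41 among those called lower outside the neural set. Only 10 of the 321 rose at least 2-fold, while 108 of the 436 fell at least 2-fold. All 3 treated libraries lay above all 3 PBS libraries for 313 of the 321, against 10.7% of all genes tested, and below them for 413 of the 436, against 9.91%. With the single PBS library low in neural transcripts, replicate 1, as the only control, 89 genes were called higher and 147 lower outside the neural set, on an assumption that 1 PBS library varies as the other groups do. Genes named below that rose and were called there too were Cxcl1, Cxcl2, Cxcl5, Steap4, Mmp9, Grem1, Nfkbia, Map3k14, Clca3b, Sprr1a, Crct1, Krt17, Il11, Lif, Plat, Slco2a1, Ier3, Atf3, Dusp1, Fdps, Slc2a1, Itga3, Cldn1, Hspb1, Tnc and mt-Tp. Among those that fell they were Lyz2, the C1q genes, Ctss, Csf1r, Csf1, Mmp12, Chdh, Ggt1, Erbb4, Slc12a3, Col1a1, Col12a1, Acta2, Igfbp5, Anxa8, Sprr2g, Platr21 and Ddx58. Other calls named below were not made, or not examined singly, against that library alone. The counts also fell to 154 and 280 without PBS replicate 2 and to 134 and 269 without TNF with ACHP replicate 3. For comparison, TNF alone against the same PBS libraries gave 488 higher (3.31%) and 429 lower (2.91%), and TNF with ACHP against TNF gave 400 higher (2.71%) and 658 lower (4.46%).

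Some genes that TNF raised were at or near their PBS level under the inhibitor, and others were not. Ccl20, Mmp9 and Cxcl2, at 1.71, 1.66 and 1.51 on the log2 scale with TNF alone, were called above PBS under it. Mmp13, at 1.51 with TNF alone, was called below PBS. Of a list of 67 tested TNF and NF-kB targets, 40 were higher with TNF alone than with PBS and 1 was lower, with a median log2 fold change of 0.35. With TNF and ACHP, 17 were higher and 3 lower than with PBS, with a median of 0.12 beside 0.00 over all genes tested. With PBS replicate 1 as the only control 10 were higher and 1 lower (median 0.14). These 2 comparisons share the PBS libraries, and TNF with ACHP against TNF had 31 members lower and 5 higher. For the adhesion molecules Vcam1 and Icam1 the log2 fold change with TNF and ACHP was 0.13 and 0.13 (edgeR adjusted p = 0.52 and 0.55), with 95% intervals of -0.07 to 0.32 and -0.08 to 0.33. For Ccl2, which draws monocytes, it was -0.08 (edgeR adjusted p = 0.68, interval -0.24 to 0.09), and for Cxcl10, which draws T cells, it was -0.08 (adjusted p = 0.67). The A20 gene Tnfaip3, an inhibitor of the pathway, differed by 0.12 (edgeR adjusted p = 0.11). Of Icam1, 11.7% of the exon length is shared with another gene, where reads were not counted.

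Cxcl1 and Cxcl2, neutrophil chemokines with neighbouring genes on chromosome 5, were above PBS with ACHP present. Cxcl2 was at 5.36, 4.28 and 5.46 CPM in the PBS libraries, 13.1, 14.4 and 15.6 under TNF, and 12.3, 12.3 and 12.9 under TNF plus ACHP. Both treated groups lay wholly above PBS. TNF with ACHP versus PBS gave a log2 change of 1.32 (SE 0.11, edgeR adjusted p = 8.5e-07), beside 1.51 with TNF alone, and TNF with ACHP versus TNF gave -0.19 (95% interval -0.40 to 0.01). Cxcl1, a ligand of the same receptor, was at 2.61, 2.34 and 2.22 CPM under PBS, 5.04, 5.92 and 3.58 under TNF, and 5.20, 5.05 and 6.30 under TNF plus ACHP. On the log2 scale the change was 1.21 (SE 0.19, edgeR adjusted p = 7.2e-04), beside 1.03 with TNF, and the difference between the TNF groups was 0.18 (-0.19 to 0.55). On GRCm39, the build of the count file, Cxcl1 (ENSMUSG00000029380) spans 91039100 to 91040974 and Cxcl2 (ENSMUSG00000058427) spans 91051730 to 91053797, both on the plus strand. Their promoters are shown because both genes were above PBS under an inhibitor of the NF-kB kinase. The lines give the 250 bases upstream of the start from RefSeq on GRCm38.p6, with the letters that match the NF-kB kB consensus in capitals, at chr5:90890995-90891244 and chr5:90903649-90903898 on the plus strand.
Cxcl1: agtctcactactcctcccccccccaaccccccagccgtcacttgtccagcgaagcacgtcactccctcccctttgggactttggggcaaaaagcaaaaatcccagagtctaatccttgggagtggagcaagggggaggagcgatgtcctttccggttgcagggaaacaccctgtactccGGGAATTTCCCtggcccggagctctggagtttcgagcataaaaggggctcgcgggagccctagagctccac
Cxcl2: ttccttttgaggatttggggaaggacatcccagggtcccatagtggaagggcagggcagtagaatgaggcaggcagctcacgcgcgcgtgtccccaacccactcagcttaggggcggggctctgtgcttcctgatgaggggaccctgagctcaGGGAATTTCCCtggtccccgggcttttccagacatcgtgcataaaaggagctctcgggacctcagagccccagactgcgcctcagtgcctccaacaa
Each holds 2 overlapping matches in 1 run of letters that is the same in both. Such a match, on either strand, occurs in 7.25% of all 32851 promoters in the table, in 10.6% of the 10696 tested genes that have one, and in 13.8% of the 232 genes called higher that have one. It is a description of the letters and not a sign of binding. Promoters of Nfkbia and Steap4 also held matches, and those of Icam1 and Grem1 held none in this window.

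Cxcl5, the third neutrophil chemokine of this cluster (ENSMUSG00000029371, chromosome 5, 90907219 to 90909483, GRCm39), differed from both. Its level was 2.47, 1.45 and 2.11 CPM under PBS, 2.25, 2.26 and 2.56 under TNF, and 4.10, 11.2 and 10.8 under TNF plus ACHP. The TNF and PBS libraries overlapped, with 1 TNF library slightly above the highest PBS library, whereas every library with ACHP lay above all of them, the first by least. The change on the log2 scale came to 2.14 (SE 0.29, edgeR adjusted p = 1.6e-04) against PBS and 1.90 (adjusted p = 2.4e-04) against TNF. Among the 18 tested chemokines 5 were higher and 1 lower with TNF and ACHP than with PBS (median 0.05), and 9 were higher and 0 lower with TNF alone (median 0.82). The others called higher were Ccl20, which draws lymphocytes and dendritic cells, by 0.32 (TNF alone 1.71), and Cxcl16 by 0.17 (TNF alone 0.61). Without TNF with ACHP replicate 3 these last 2 lost their calls (edgeR adjusted p = 0.055 and 0.17), leaving 3 of the 18, and 3 were called higher against PBS replicate 1 alone. Cxcl14 fell by 1.28, but not against PBS replicate 1 alone (-0.66, edgeR adjusted p = 0.63).

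**Figure D2:**
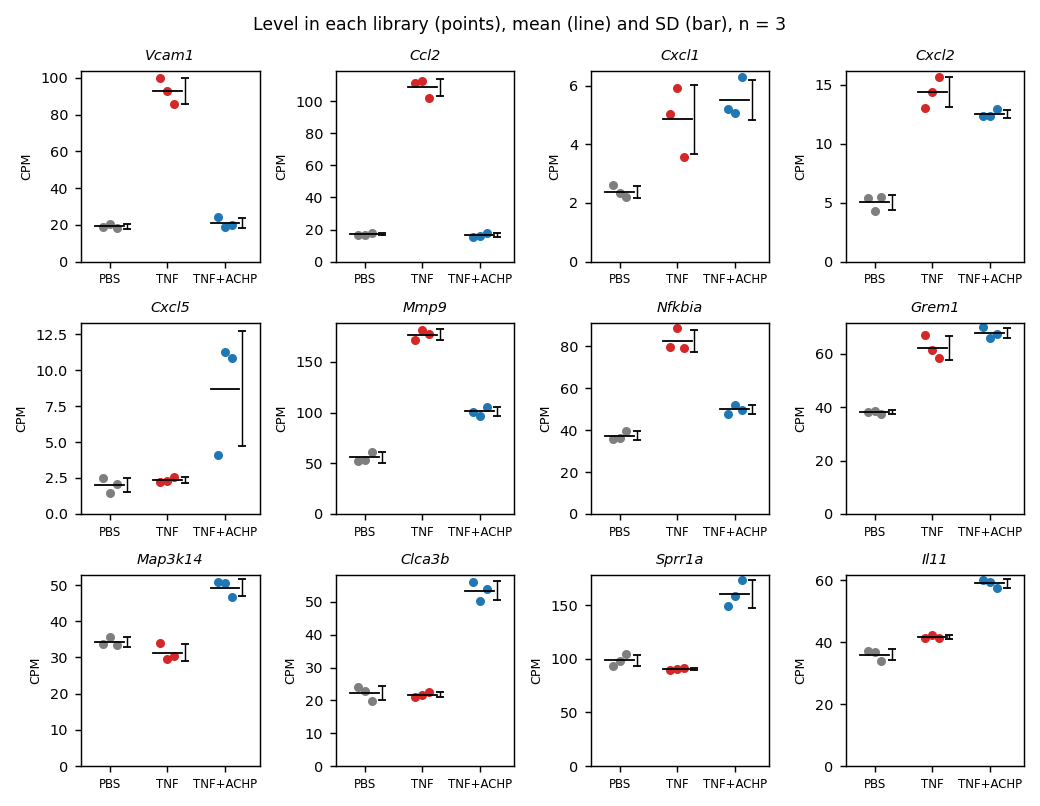
Level of 12 genes in CPM, on linear axes from 0, in the 3 libraries each of PBS, TNF, and TNF with ACHP. Points are libraries, lines are means and bars are SD (n = 3). Vcam1 and Ccl2 are high with TNF alone, Cxcl1, Cxcl2 and Grem1 are high in both TNF groups, Mmp9 and Nfkbia lie between, and Cxcl5, Map3k14, Clca3b and Sprr1a are high with ACHP present.

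Other TNF-raised genes were also above PBS with ACHP present, in part or to about the level with TNF alone. With no ACHP-alone group, a kept TNF effect and a rise with ACHP cannot be told apart. Mmp9, a gelatinase that cleaves basement membrane collagen, was at 51.9, 53.5 and 61.5 CPM under PBS, 171, 182 and 177 under TNF, and 101, 96.8 and 106 under TNF plus ACHP. The 3 groups did not overlap, and the treated group of interest lay between the others. On the log2 scale the change was 0.85 (SE 0.06, edgeR adjusted p = 2.2e-08) beside 1.66 with TNF, and -0.81 (adjusted p = 2.0e-09) against TNF. Grem1, which encodes the BMP antagonist gremlin, was at 38.3, 38.7 and 37.4 CPM under PBS, 67.1, 61.5 and 58.3 under TNF, and 70.0, 66.1 and 67.4 under TNF plus ACHP. Here the 2 TNF groups overlapped and PBS lay below both. On the log2 scale the change was 0.83 (SE 0.06, edgeR adjusted p = 2.2e-08), beside 0.71 with TNF. Slco2a1, a prostaglandin transporter, rose by 0.38 (0.33 with TNF alone), Plat, the tissue plasminogen activator, by 0.33 (0.38), Ier3, an early response gene, by 0.28 (0.28), and Lif, a gp130 cytokine, by 0.27 (0.24). All 4 were also called against PBS replicate 1 alone, with edgeR adjusted p from 6.8e-06 to 0.016.

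Within the NF-kB pathway itself the changes were small. Nfkbia, which encodes IkB-alpha, was at 35.9, 36.2 and 39.8 CPM under PBS, 79.7, 88.6 and 79.4 under TNF, and 47.8, 52.2 and 49.8 under TNF plus ACHP. With ACHP it lay well below TNF alone, but no treated library reached PBS. Its log2 fold change was 0.42 (edgeR adjusted p = 2.7e-04) beside 1.14. Traf1, an adaptor of TNF receptors, rose by 0.43 (1.12 with TNF) and Nfkb2, the p100 subunit, by 0.22 (0.40), neither of them called against PBS replicate 1 alone (edgeR adjusted p = 0.096 and 0.19). Of Nfkb2, 20.5% of the exon length is shared with another gene. Map3k14, which encodes NIK, the kinase that activates p100 processing, moved otherwise. It was at 33.7, 35.8 and 33.3 CPM under PBS, 33.9, 29.5 and 30.5 under TNF, and 50.9, 50.4 and 46.7 under TNF plus ACHP. Only the libraries with ACHP stood above the rest, by a log2 fold change of 0.53 over PBS (edgeR adjusted p = 2.5e-05) and 0.65 over TNF (8.5e-07). In all, 3 of 24 tested subunits and kinases were higher and 0 lower (median 0.06), and 3 of 16 feedback inhibitors were higher and 0 lower (median 0.09). In each list 1 gene was called higher against PBS replicate 1 alone. Besides Nfkbia, the inhibitors were Zc3h12a, a ribonuclease that degrades cytokine mRNAs, by 0.58 (0.33 with TNF, not called), and Otud7b, a deubiquitinase, by 0.15. Neither was called against PBS replicate 1 alone (edgeR adjusted p = 0.15 and 0.40). Without PBS replicate 2 the call of Otud7b was also lost (adjusted p = 0.17).

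**Figure D3:**
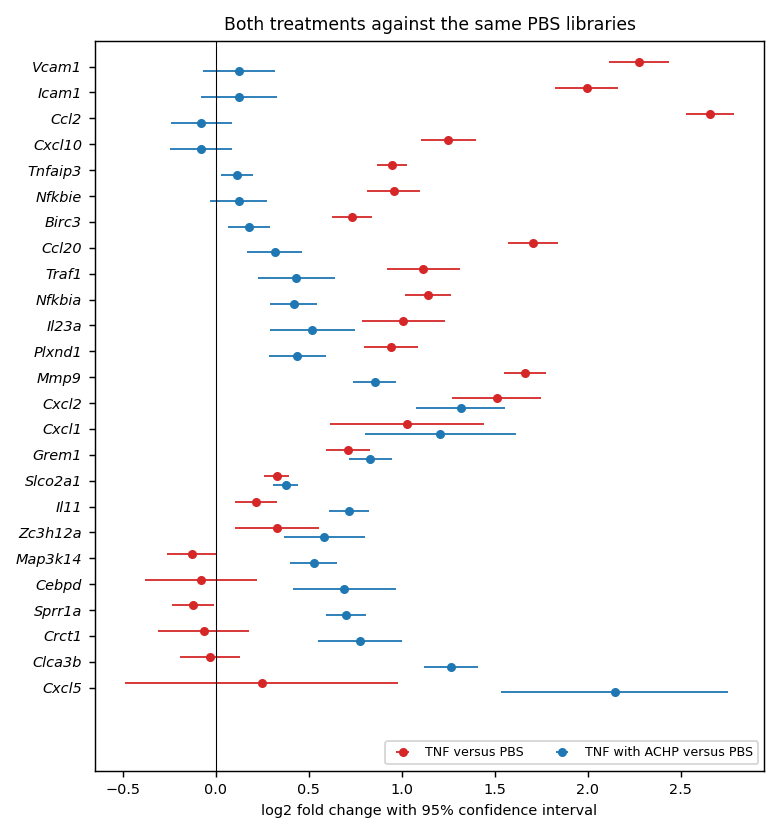
Log2 fold change against PBS, with unadjusted 95% confidence intervals from edgeR, of 25 genes for TNF alone (red) and TNF with ACHP (blue). Both comparisons use the same 3 PBS libraries. From top to bottom the blue points move from near 0, as for Vcam1 at 0.13, past those close to the red points, as for Grem1 at 0.83 and 0.71, to those far right of them, as for Cxcl5 at 2.14 and 0.25.

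Some members of a list of cornified-type epithelial genes were higher with ACHP present and were not called with TNF alone. Clca3b, of the calcium-activated chloride channel regulator family (ENSMUSG00000037033, chromosome 3, 144528384 to 144555118, GRCm39), was at 24.2, 22.8 and 19.8 CPM under PBS, 20.9, 21.6 and 22.6 under TNF, and 56.0, 50.2 and 53.9 under TNF plus ACHP. PBS and TNF alone overlapped and ACHP lay far above. The change on the log2 scale came to 1.27 (SE 0.07, edgeR adjusted p = 1.8e-09), beside -0.03 with TNF alone, and 1.30 against TNF (adjusted p = 1.7e-10). Sprr1a, a precursor of the cornified envelope (ENSMUSG00000050359, chromosome 3, 92391259 to 92393202, GRCm39), was at 93.4, 98.0 and 104 CPM under PBS, 89.8, 90.5 and 91.9 under TNF, and 149, 159 and 174 under TNF plus ACHP. Its log2 fold change was 0.70 (edgeR adjusted p = 7.5e-08), beside -0.12 with TNF alone, and 0.82 against TNF (adjusted p = 2.1e-09). Both promoters held letters of the AP-1 site TGANTCA, searched on both strands, and are shown for that reason, with those letters in capitals. They are the 250 bases upstream of the start, RefSeq on GRCm38.p6, on the minus strand at chr3:144849303-144849552 and chr3:92485882-92486131.
Clca3b: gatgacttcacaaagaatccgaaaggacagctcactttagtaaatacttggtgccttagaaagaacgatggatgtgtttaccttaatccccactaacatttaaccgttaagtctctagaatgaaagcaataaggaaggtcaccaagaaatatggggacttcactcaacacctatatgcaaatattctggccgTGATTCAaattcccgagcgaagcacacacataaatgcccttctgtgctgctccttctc
Sprr1a: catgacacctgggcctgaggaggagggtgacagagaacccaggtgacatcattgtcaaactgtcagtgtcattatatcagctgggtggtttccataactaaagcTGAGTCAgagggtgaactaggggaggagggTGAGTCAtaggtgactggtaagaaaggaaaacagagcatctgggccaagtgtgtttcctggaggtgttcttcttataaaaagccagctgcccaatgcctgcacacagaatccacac
Clca3b held 1 match and Sprr1a 2. The site occurs in 6.75% of all promoters in the table, 5.81% of those of tested genes and 7.76% of those of the genes called higher, and a match is a description only. Crct1, a small protein of the epidermal differentiation complex, rose by 0.78 (edgeR adjusted p = 1.9e-04, -0.06 with TNF), and the stress keratin Krt17 by 0.46 (4.8e-04, 0.21 with TNF). Krt16 rose by 1.10, beside 1.24 with TNF, from 0.835 to 1.55 CPM with PBS, and lost its call without any 1 of 5 libraries, with the highest edgeR adjusted p of 0.18 without PBS replicate 2. Of 14 tested members of this list 5 were higher and 2 lower (median -0.12). Sprr2g fell by 0.76, beside -0.86 with TNF alone, and Ivl, the envelope protein involucrin, by 0.26. TNF alone raised 1 of the 14 and lowered 2.

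Of the gp130 cytokine axis, 6 of 23 tested genes were higher and 0 lower (median 0.03), against 7 higher with TNF alone. Against PBS replicate 1 alone 2 of the 23 were higher (median -0.01). Il11, a gp130 cytokine, was at 37.1, 37.0 and 33.9 CPM under PBS, 41.5, 42.5 and 41.3 under TNF, and 60.1, 59.5 and 57.4 under TNF plus ACHP. The 3 groups were stepped without overlap, with log2 fold changes of 0.72 (edgeR adjusted p = 7.5e-08) with TNF and ACHP and 0.22 (0.021) with TNF alone. Cebpd, a C/EBP transcription factor of the acute phase, rose by 0.69 (edgeR adjusted p = 0.0030) beside -0.08 with TNF, and 15.003% of its exon length is shared with another gene. Against PBS replicate 1 alone its value was 0.78 with an adjusted p of 0.053. Steap4, a metalloreductase named here after its values were seen, had 8, 4 and 8 counts under PBS, 15, 10 and 13 under TNF, and 42, 99 and 64 under TNF plus ACHP. Its log2 fold change of 3.24 (edgeR adjusted p = 1.3e-05) was the largest among the called members of the NF-kB target list, beside 0.95 (0.23) with TNF. Of 23 cytokines and growth factors 4 were higher and 2 lower (median -0.03), and 2 and 1 against PBS replicate 1 alone. Il23a, a subunit of interleukin 23, rose by 0.52 (1.01 with TNF), and Csf3, which encodes G-CSF, by 0.41 (-0.02 with TNF), though Csf3 lost its call without PBS replicate 2 (edgeR adjusted p = 0.14) and without either of TNF with ACHP replicates 1 and 2. Nppb, the natriuretic peptide B gene, rose by 0.87 (0.27 with TNF), but not without TNF with ACHP replicate 3 (edgeR adjusted p = 0.057). Olfm4, a secreted glycoprotein, rose by 0.71 (1.05 with TNF) and lost its call without any 1 of 4 libraries, with edgeR adjusted p up to 0.15 without TNF with ACHP replicate 3. The mitochondrial proline tRNA gene mt-Tp rose by 0.79 (1.07 with TNF).

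Early response genes formed another set of small increases. Of 30 tested immediate early and AP-1 genes 10 were higher and 0 lower (median 0.16), and of 21 genes of the dual-specificity phosphatases and ERK feedback 5 were higher and 0 lower (median 0.14). With TNF alone the counts were 4 higher and 1 lower, and 2 higher and 1 lower. Dusp1, a phosphatase that switches off p38 and JNK, was at 58.5, 57.5 and 54.8 CPM under PBS, 51.9, 52.8 and 55.0 under TNF, and 68.6, 73.4 and 77.04 under TNF plus ACHP. It stood above PBS in each treated library, by a log2 fold change of 0.36 (edgeR adjusted p = 2.4e-04), beside -0.10 with TNF. Ier3 is given above. Atf3, a stress-induced factor, rose by 0.36 (edgeR adjusted p = 0.032) and Myc by 0.17 (0.019). Atf3 lost its call without any 1 of 5 libraries (adjusted p up to 0.13), and Myc without any 1 of 4 (up to 0.082). For Fos and Egr1 the values were 0.09 and 0.21 (edgeR adjusted p = 0.87 and 0.20). Without PBS replicate 2, and equally without TNF with ACHP replicate 3, 3 of the 30 early genes were called by edgeR. Without TNF with ACHP replicate 3, 2 of the 21 feedback genes were, and against PBS replicate 1 alone 4 of the 30.

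Some genes of cholesterol synthesis were slightly higher with ACHP, while most of the list did not pass the test. Of 32 tested genes of cholesterol synthesis and uptake 11 were higher and 1 lower (median 0.15), and 15 were higher and 0 lower than with TNF alone. TNF alone against PBS gave 0 calls by edgeR (median -0.04), 8 at an unadjusted p under 0.05 and 1 by DESeq2. Fdps, which makes farnesyl diphosphate, was at 161, 156 and 172 CPM under PBS, 155, 160 and 160 under TNF, and 191, 200 and 200 under TNF plus ACHP. Its log2 fold change was 0.27 (edgeR adjusted p = 3.4e-04), and it was called against PBS replicate 1 alone as well (0.0023). Fdft1, the squalene synthase gene, rose by 0.21, and the fatty acid genes Scd2 and Fasn rose by 0.20 and 0.18. Hmgcs1 and Sqle, enzymes of the same pathway, were at 0.08 each (edgeR adjusted p = 0.21 and 0.35). Abca1, which exports cholesterol, fell by 0.63 (-0.32 with TNF, not called). The number called higher was 5 without PBS replicate 2 or without TNF with ACHP replicate 2, and 2 of the 32 against PBS replicate 1 alone. Of Fdft1, 18.8% of the exon length is shared with another gene.

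Glycolysis and hypoxia-type genes had 5 of 33 higher and 0 lower (median 0.05), with 0 higher and 3 lower under TNF alone. Slc2a1, the glucose transporter GLUT1, was at 231, 241 and 245 CPM under PBS, 207, 218 and 222 under TNF, and 266, 280 and 293 under TNF plus ACHP. It was higher than PBS with ACHP, by 0.22 (edgeR adjusted p = 0.0018), and lower with TNF alone, at -0.15 (0.031). The number called higher was 2 without any 1 of 6 libraries, among them PBS replicate 1 and TNF with ACHP replicates 2 and 3, and 2 against PBS replicate 1 alone. Itga3, an integrin that binds laminin, rose by 0.23 (edgeR adjusted p = 2.6e-04, -0.06 with TNF), and the tight junction gene Cldn1 by 0.24 (1.5e-04, 0.15 with TNF). Hspb1, a small heat shock protein, rose by 0.29 (0.0031, -0.09 with TNF), 1 of 2 called higher of 22 cytosolic heat shock genes.

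**Figure D4:**
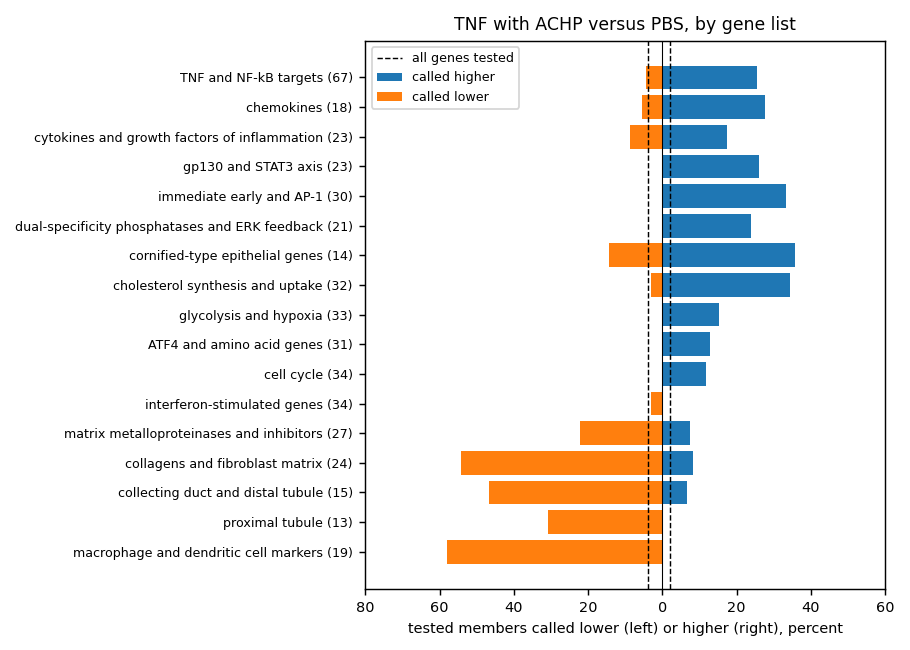
For 17 gene lists, the percent of tested members called higher (blue, right) and lower (orange, left) with TNF and ACHP than with PBS by edgeR at an adjusted p under 0.05. The number of tested members is in parentheses, and dashed lines mark the share over all genes tested, 2.18% higher and 3.87% lower. The bars reach furthest right for immediate early, cornified-type and cholesterol genes and furthest left for macrophage markers, collagens and collecting duct genes.

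Macrophage transcripts fell in the libraries with ACHP. Of 19 tested macrophage and dendritic cell markers 11 were lower and 0 higher, with a median log2 fold change of -1.21. With TNF alone 0 were called by edgeR (median 0.03), 5 at an unadjusted p under 0.05 and 0 by DESeq2, and against TNF 12 were lower with ACHP. Their summed level was 59.2 to 65.7 CPM with PBS, 64.9 to 68.4 under TNF, and 32.5 to 36.7 under TNF plus ACHP. Lyz2, the macrophage lysozyme, was at 5.99, 6.84 and 6.92 CPM under PBS, 8.06, 10.2 and 8.19 under TNF, and 0.551, 1.38 and 1.40 under TNF plus ACHP. The treated libraries were far below every other, a log2 change of -2.54 (SE 0.22, edgeR adjusted p = 8.5e-07). C1qa, C1qb and C1qc, which encode the complement C1q chains and were named after their values were seen, had log2 fold changes of -3.91, -3.27 and -3.02, and the protease gene Ctss one of -2.82. Csf1r, the receptor for the macrophage growth factor CSF1, fell by 0.77 (edgeR adjusted p = 9.6e-05), from 12.9, 13.6 and 15.7 CPM to 8.82, 8.24 and 7.70, and 15.1% of its exon length is shared with another gene. Against PBS replicate 1 alone 7 of the 19 were lower, with a median of -1.30. In bulk RNA fewer cells of a type and less RNA per cell cannot be told apart. T and B cell markers summed to 3.73 to 5.06 CPM with PBS and 4.00 to 4.84 with TNF and ACHP. Only 2 of these 15 markers passed the filter, so the sums say little about lymphocytes.

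Csf1, Mmp12 and Mmp13, secreted factors that TNF raised, lay below PBS with ACHP present. Csf1, the ligand of Csf1r, was at 421, 425 and 402 CPM under PBS, 702, 733 and 694 under TNF, and 351, 343 and 360 under TNF plus ACHP. The 3 groups did not overlap, and on the log2 scale the change was -0.24 (SE 0.04, edgeR adjusted p = 2.7e-04) beside 0.77 with TNF. Mmp12, a metalloelastase made by macrophages, was at 10.4, 12.1 and 9.62 CPM under PBS, 24.4, 21.95 and 21.6 under TNF, and 6.80, 5.00 and 5.79 under TNF plus ACHP. It fell by 0.88 (edgeR adjusted p = 2.2e-04), beside a rise of 1.09 with TNF. Mmp13, a collagenase, was at 3.74, 7.01 and 5.73 CPM under PBS, 16.8, 17.0 and 13.9 under TNF, and 2.27, 2.86 and 1.85 under TNF plus ACHP. It fell by 1.24 (edgeR adjusted p = 0.0011) beside 1.51 with TNF, but PBS replicate 1 was the lowest of its group, and against it alone the value was -0.66 (adjusted p = 0.28). Of 27 metalloproteinases and inhibitors 2 were higher and 6 lower (median -0.11), against 7 higher and 4 lower with TNF alone. The counts were 1 higher and 2 lower against PBS replicate 1 alone (median -0.02). The fall in Mmp12 stood beside the fall in macrophage markers, whose part in it was not tested.

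**Figure D5:**
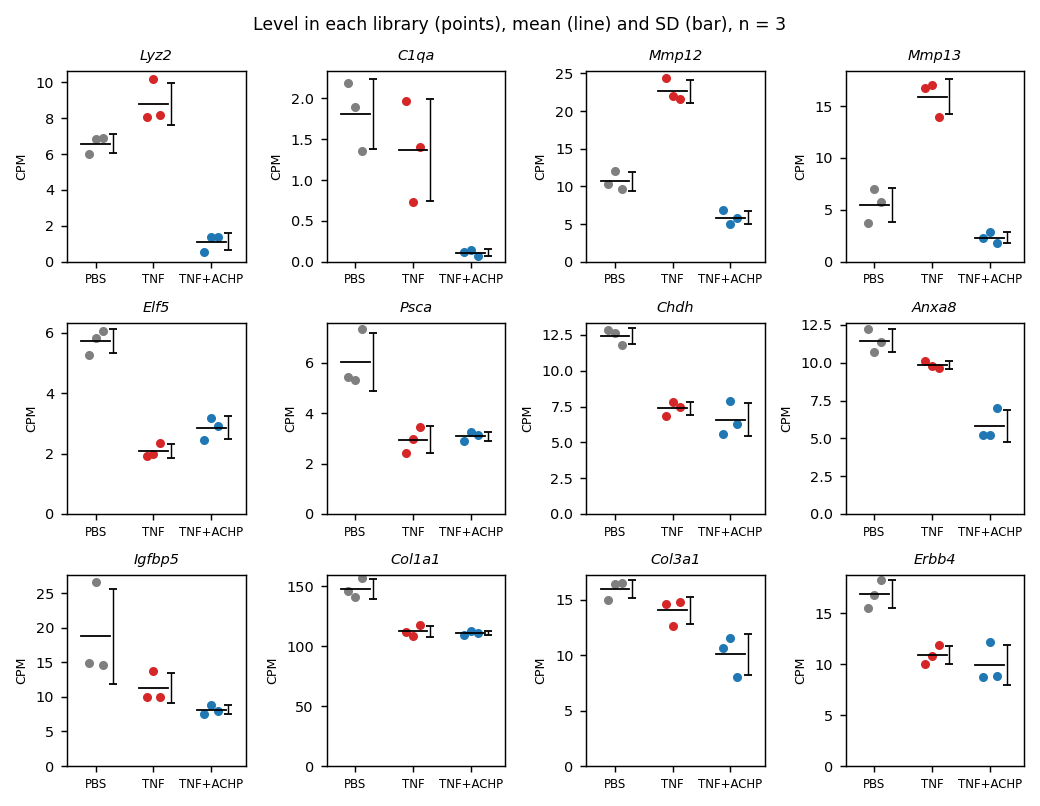
Level of 12 genes in CPM, on linear axes from 0, in the 3 libraries each of PBS, TNF, and TNF with ACHP. Points are libraries, lines are means and bars are SD (n = 3). Lyz2 and C1qa are low with TNF and ACHP, Mmp12 and Mmp13 are high with TNF and below PBS with ACHP, and Elf5, Psca, Chdh, Col1a1 and Erbb4 are low in both TNF groups.

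Some kidney epithelial genes were called lower than PBS in both TNF groups, among them Elf5, Scnn1a, Chdh and Ggt1. Others were called lower with ACHP present but not with TNF alone. Among them were the calcium-binding protein gene Calb1 (log2 fold change -2.14 and -0.21, edgeR adjusted p = 0.022 and 0.86) and the urea cycle gene Ass1 (-0.22 and 0.05, adjusted p = 0.0030 and 0.59). The neuron markers had medians of -2.51 and -0.33 in the same comparisons. Calb1 was not called against PBS replicate 1 alone. Whether Calb1 follows the neural transcripts was not tested. Of 15 tested collecting duct and distal tubule genes 7 were lower and 1 higher (median -0.54), beside 5 lower and 1 higher with TNF alone (median -0.41), and 4 of 13 proximal tubule genes were lower in each (median -0.22 and -0.17). Of the 13, 2 were lower against PBS replicate 1 alone. Elf5, an epithelial ETS factor, was at 5.29, 5.84 and 6.05 CPM under PBS, 1.92, 2.00 and 2.37 under TNF, and 2.45, 3.19 and 2.93 under TNF plus ACHP. Both TNF groups lay below PBS, with log2 fold changes of -0.998 (edgeR adjusted p = 0.0013) under ACHP and -1.46 with TNF alone, and TNF with ACHP versus TNF gave 0.46 (adjusted p = 0.18, interval 0.05 to 0.87). Chdh, which oxidises choline in the proximal tubule, was at 12.8, 12.6 and 11.8 CPM under PBS, 6.85, 7.78 and 7.48 under TNF, and 5.57, 7.86 and 6.30 under TNF plus ACHP. It fell by 0.90 (edgeR adjusted p = 1.2e-04), beside -0.75 with TNF alone. Ggt1, a brush border enzyme, fell by 0.52 (-0.57 with TNF), Scnn1a, a subunit of the epithelial sodium channel, by 0.32 (-0.49), Psca, a small surface glycoprotein, by 0.97 (-1.04), and Erbb4, an EGF receptor relative, by 0.75 (-0.64). Hsd11b2, which inactivates glucocorticoids in the collecting duct, rose instead, by 0.44 (0.59 with TNF).

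The collecting duct count depended on the control. Against PBS replicate 1 alone 1 of the 15 was lower (median -0.25), and without PBS replicate 2 or TNF with ACHP replicate 3, 4 were. Aqp4, one of the 7, belongs to the astrocyte list and was set apart. Elf5, Psca and Scnn1a were not called against PBS replicate 1 alone (log2 fold change -0.88, -0.81 and -0.27, edgeR adjusted p = 0.097, 0.12 and 0.18), while Chdh, Ggt1 and Erbb4 were (0.0021, 0.0078 and 0.038). Slc12a3, the thiazide-sensitive transporter, was low throughout, at 2.33, 2.06 and 2.00 CPM with PBS and 0.245, 0.762 and 0.700 with TNF and ACHP. It fell by 1.86 (edgeR adjusted p = 0.0042), beside -1.01 (0.094) with TNF.

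Several collagen genes fell in the libraries with ACHP, as did other matrix genes such as Postn and Lox, while Fn1 and Tnc rose. Of 24 tested collagens and fibroblast matrix genes 13 were lower and 2 higher (median -0.24), beside 5 lower and 0 higher with TNF alone (median -0.04). Col1a1, the main chain of collagen I, was at 146, 141 and 157 CPM under PBS, 111, 108.5 and 117 under TNF, and 109.4, 113 and 111 under TNF plus ACHP. Both TNF groups were below PBS by about the same amount, with log2 fold changes of -0.41 (edgeR adjusted p = 1.3e-05) and -0.39. Col3a1, of collagen III, was at 15.01, 16.4 and 16.5 CPM under PBS, 14.6, 12.6 and 14.8 under TNF, and 10.7, 11.5 and 8.02 under TNF plus ACHP. It fell by 0.66 (edgeR adjusted p = 0.0011) beside -0.19 (0.37) with TNF, but the value against PBS replicate 1 alone was -0.56 (0.066). Col12a1 fell by 0.44 (edgeR adjusted p = 7.4e-05, -0.08 with TNF) and Acta2, smooth muscle actin, by 0.37 (1.9e-04, -0.20 with TNF). Postn, periostin, fell by 0.54 (edgeR adjusted p = 0.030, -0.02 with TNF) and Lox, which cross-links collagen, by 0.27 (7.6e-04, 0.10 with TNF). Postn lost its call without any 1 of 4 libraries, with edgeR adjusted p up to 0.15. Fn1, fibronectin, rose by 0.19 and Tnc, tenascin C, by 0.28, beside 0.01 and 0.12 with TNF. Because Fn1 is abundant, the summed level of the list was 8590 to 8916 CPM with PBS and 8993 to 9941 with TNF and ACHP. Without TNF with ACHP replicate 3, 7 of the 24 were lower, and against PBS replicate 1 alone 5 were (median -0.19). Thy1, another of the 13, is on the neuron list too and was set apart.

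Other genes among the largest decreases were Igfbp5, a binding protein of insulin-like growth factors, Anxa8, an annexin, Gpnmb, a membrane glycoprotein, Prickle2, of planar cell polarity, and the long noncoding RNA Platr21. Anxa8 was at 12.3, 10.7 and 11.3 CPM under PBS, 10.1, 9.78 and 9.66 under TNF, and 5.20, 5.19 and 7.003 under TNF plus ACHP, a log2 fold change of -0.99 (edgeR adjusted p = 4.1e-05) beside -0.21 with TNF. Igfbp5 was at 14.9, 26.7 and 14.6 CPM with PBS and 7.59, 8.86 and 7.96 with TNF and ACHP. PBS replicate 2 stood apart for this gene, and the log2 fold change of -1.20 (edgeR adjusted p = 5.3e-04) was -0.87 (0.0028) against PBS replicate 1 alone. Gpnmb fell by 0.87 and Platr21 by 1.01, against which TNF alone gave -0.19 and -0.33, neither called. Prickle2 fell by 0.78, but not without PBS replicate 2 (edgeR adjusted p = 0.070) or against PBS replicate 1 alone (-0.37, 0.58).

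The remaining lists had few called members. The interferon and oxidative phosphorylation lists were near or under the share of all genes, while others, such as the plasminogen and p53 lists, lay above it on small counts. Interferon-stimulated genes had 1 of 34 lower and 0 higher (median -0.14), and 3 lower without PBS replicate 1. The gene called was Ddx58, the RNA sensor RIG-I, which fell by 0.32 (edgeR adjusted p = 7.1e-04) beside 0.16 with TNF. MHC class I presentation had 1 of 19 higher and 2 lower, against 7 higher with TNF alone, and 3 and 3 without PBS replicate 3. Tap1, a peptide transporter, rose by 0.52 (0.46 with TNF), a call lost without PBS replicate 2 (edgeR adjusted p = 0.059). Leukocyte adhesion molecules had 1 of 16 higher and 4 lower, against 4 higher and 3 lower with TNF alone, and 1 lower against PBS replicate 1 alone. Cell cycle genes had 4 of 34 higher and 0 lower (median 0.11), against 17 higher with TNF alone. The number higher was 1 without TNF with ACHP replicate 3 and 8 without PBS replicate 3, and by edgeR 0 against PBS replicate 1 alone (13 at an unadjusted p under 0.05). Plasminogen activation genes had 3 of 8 higher and 0 lower, and 1 without any 1 of 6 libraries, among them PBS replicate 1. Targets of p53 had 4 of 26 higher and 0 lower, and 1 higher against PBS replicate 1 alone. Pmaip1, which encodes the death-promoting protein NOXA, rose by 0.26 (edgeR adjusted p = 1.1e-04) beside 0.12 with TNF. ATF4 and amino acid genes had 4 of 31 higher and 0 lower, and 0 by edgeR without PBS replicate 2 or TNF with ACHP replicate 2 or 3, and 1 against PBS replicate 1 alone. NRF2 targets had 3 of 29 lower and 0 higher, 1 lower without PBS replicate 2 or TNF with ACHP replicate 1 or 3, and by edgeR 0 against PBS replicate 1 alone (3 at an unadjusted p under 0.05). Gclm, which makes glutathione precursors, fell by 0.26 (-0.22 with TNF). Nuclear oxidative phosphorylation genes had 0 of 27 called by edgeR, 2 at an unadjusted p under 0.05 and 0 by DESeq2.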

How the data were processed

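The 3 RNA-seq libraries each of PBS, TNF, and TNF with ACHP were grouped by the sample titles. Per the file headers the authors counted reads per Ensembl 109 gene on GRCm39 with featureCounts 2.0.1 at default settings, and the deposited values are raw counts. The submitters' processing notes name STAR, featureCounts, DESeq2 and mm10. Default counting uses no strand and drops reads shared by overlapping genes. Symbols matched 52029 gene identifiers, which hold 99.6% of the counts.

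Tests were made with edgeR 4.0.16 and limma 3.58.1 in R 4.3.3 (filterByExpr, TMM, a quasi-likelihood F test on all 9 libraries). A call means a Benjamini-Hochberg adjusted p under 0.05, adjusted over 14747 genes. Other p-values in parentheses after a first edgeR value are of the same test. CPM values are scaled by TMM. The script was tested on simulated data. Within groups, chi-square per degree of freedom between replicates was 1.87 to 6.53, so no libraries were copies.

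The members, the 46 gene lists and the alternatives were chosen with earlier results of these data known. The rule named the 12 largest called changes in each direction (at least 5 CPM in the higher group, no overlap between groups, not set apart, no predicted genes), up to 3 called genes per list with the same limits, and Vcam1, Icam1, Ccl2, Nfkbia and Tnfaip3. It also covered the NF-kB targets that TNF alone raised, of which only some are described. Other genes, including Steap4, Krt16, Krt17, C1qa, Col1a1 and the smaller list changes, were named after their values were seen.

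Alternatives were DESeq2 1.42.0, RLE factors, total counts alone, no filter or 1 CPM in 3 libraries, the 6 libraries alone, the replicate number as a block, each library left out, thinned counts, a neuron covariate, PBS replicate 1 as the only PBS library, removal of the neural set before the fit, a 1.5-fold limit for it, a stricter adjusted p of 0.01, and a minimum change of 1 on the log2 scale.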

Additional observations from a re-analysis of the deposited data

How the results depend on the processing

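Genes higher and lower with TNF and ACHP than with PBS numbered 321 and 570 (436 with the neural set left out, where the number higher was the same). They were 148 and 345 when the 6 libraries alone were fitted, 36 and 83 (83) with neuron marker level as a covariate, and 89 and 148 (147) with PBS replicate 1 as the only PBS library. At an adjusted p under 0.01 they were 111 and 316 (224), and with a minimum change of 1 on the log2 scale they were 10 and 235 (108). With no filter on low counts 862 (689) were lower. Leaving out 1 library at a time gave 134 to 427 higher, 357 to 731 lower, and 269 to 559 lower outside the neural set. DESeq2 gave 224 and 474, total counts alone 256 and 618, RLE factors 304 and 587, and thinned counts 253 and 528. With neural genes set apart at 1.5-fold, 371 were lower.

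With the replicate number as a block the counts were 372 and 616 (478), and no described gene lost its call. Described genes are here those named by the rule or added after their values were seen, including some that the text does not name. The numbers were not taken to pair the libraries, since deviations of same-numbered PBS and TNF with ACHP libraries correlated at -0.03, -0.10 and -0.09. Same-numbered PBS and TNF libraries correlated at 0.17, 0.17 and -0.01, and TNF and TNF with ACHP libraries at 0.01, 0.01 and 0.03.

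Of 133 described genes that were called, 74 lost their call with PBS replicate 1 as the only PBS library and 98 with the neuron covariate. With that covariate 6 of 67 NF-kB targets, 2 of 23 gp130 genes and 1 of 32 cholesterol genes were higher, and 2 of 27 metalloproteinases and inhibitors and 3 of 24 matrix genes lower. The cause was not tested, beyond that the first leaves 4 libraries in the comparison and that neuron marker level was lowest in the libraries with ACHP. Snap25 changed sign against PBS replicate 1 alone, to 0.090, and for TNF versus PBS to 6.15. With the covariate Snap25 was at 0.91 for TNF versus PBS. Genes of under about 5 CPM, such as Steap4 and C1qa, rest on few counts in some libraries.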
